A study of Homo sapiens with 12 samples.

Results

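The response of Kelly neuroblastoma cells to the BET bromodomain inhibitor JQ1 was read across all genes from 6 of the 12 arrays of the series, 3 from cells given 1 µM JQ1 for 24 h and 3 from cells given DMSO, the solvent, for the same 24 h. The series also profiled BE(2)-C, another neuroblastoma line, and its 6 arrays entered the fit only for the estimate of the spread. Of 49395 probe sets on the Affymetrix PrimeView array, 44988 named 1 gene, and these read 18132 genes. Whether the triplicates came from separate cultures is not stated in the labels, and the p-values reflect only how far these samples vary, part of which may be technical. Kelly is an established line with extra copies of MYCN, and the comparison holds 1 line, 1 dose and 1 time.

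BET proteins such as BRD2 and BRD3 hold acetylated histones through their bromodomains and help RNA polymerase II to leave the promoter by recruiting the elongation factor P-TEFb. JQ1 fills the acetyl-lysine pocket and displaces these proteins from chromatin. Genes served by large clusters of enhancers, which in neuroblastoma include many that set the noradrenergic identity of the cells, are known for their sensitivity to such displacement, and MYCN is the oncogene for which BET inhibition was tried in this tumour.

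The level of a gene is the log2 intensity of its brightest probe set, the one with the highest mean over the 12 arrays. Array values are log2 intensities in the order of replicates 1, 2 and 3. A gene passed, or was called, when its limma p-value adjusted by Benjamini-Hochberg over all 18132 genes was under 0.05, and only such genes are said to have risen or fallen. Because the arrays were few, each call was repeated in 6 fits that each left out 1 Kelly array, termed leave-one-out fits here, and unless stated otherwise the genes named as risen or fallen passed in all 6 and had groups that did not overlap. A second reading took the mean of all probe sets of a gene, and it is given for single genes where it ended a call or moved a value by more than 1.5 times. Counts of the gene lists are followed by their value without a given array wherever leaving it out moved them by more than 1.5 times and by more than 1 gene.

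Before the genes, the arrays themselves were compared. Within a group, pairs of arrays had r = 0.952 to 0.992 across probe sets, and pairs of 1 DMSO and 1 JQ1 array had 0.912 to 0.979. The spread of values within an array was narrower with JQ1: the interquartile range of log2 intensity was 2.60 to 3.09 in the JQ1 arrays and 2.89 to 3.5 in the DMSO arrays, and it was lower with JQ1 in each of the 3 same-numbered pairs. Array number 3 had the narrowest range in both groups, and its hybridization control signal, from bacterial transcripts added to each sample, was the highest in both (13.26 with DMSO and 13.65 with JQ1, against 10.70 to 12.89 in the other 4 arrays). This signal was higher with JQ1 in each same-numbered pair (12.27 against 11.74, 12.89 against 10.70 and 13.65 against 13.26). The excess of 3' over 5' signal (log2), which grows as RNA degrades, was also higher with JQ1 in each pair, for GAPDH (0.25, 0.34 and 0.56 with JQ1, 0.19, 0.16 and 0.45 with DMSO) and for ACTB (1.25, 1.65 and 2.24 against 1.24, 1.55 and 2.22). The part of these differences in the results was not tested beyond the alternatives given below.

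The markers fitted a neuroblastoma origin, and they were not chosen to tell Kelly from BE(2)-C. All 10 measured neuroblastoma markers, among them PHOX2A, HAND2, GATA3, ISL1, CHGA and ALK, had a mean of 7 or above in both groups, with array medians of 11.08 to 11.40 with DMSO and 11.01 to 11.16 with JQ1. The 13 haematopoietic markers had array medians of 4.81 to 5.32 with DMSO and 5.11 to 5.59 with JQ1 and 0 of them passed in limma (0 also at an unadjusted p under 0.05). The 12 epithelial markers had medians of 5.16 to 5.83 and 5.32 to 5.71, and the 12 Schwann cell and fibroblast markers of 4.98 to 5.46 and 5.14 to 5.88. CD3E, EPCAM, CDH1, SOX10, COL1A2 and DCN had means of 7.07 or below in both groups. The 17 control probe sets with no human target reached 6.95 in JQ1 replicate 3, and up to 5.56, 5.44 and 6.17 in the DMSO arrays. Of these markers 13 and 12 (haematopoietic, DMSO and JQ1), 10 and 10 (epithelial) and 10 and 10 (Schwann cell and fibroblast) had group means below 7. PDGFRB, of the last list, passed (-0.73) in only 2 leave-one-out fits and not after quantile normalization (adjusted p = 0.0708), and had -0.04 with the mean of its probe sets. KRT19, a keratin counted among the epithelial markers, fell by 1.37 on the log2 scale from a level of 7.20.

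Across all genes 1178 passed (6.5%), of which 320 rose (1.76%) and 858 fell (4.73%). In all 6 leave-one-out fits 537 passed (2.96%), which were 105 of the rises (0.579% of all genes) and 432 of the falls (2.38%). At an unadjusted p under 0.05 there were 4077 genes. The falls were larger: their median size was 1.16 on the log2 scale against 0.89 for the rises, 464 of them lay between 2-fold and 4-fold and 87 beyond 4-fold, while 111 and 3 of the rises did. The smallest passing change was 0.5. The total moved with single arrays, from 603 when DMSO replicate 1 was left out to 2168 when DMSO replicate 3 was. Leaving out DMSO replicate 2 gave 680 and leaving out JQ1 replicate 2 gave 750. The other reading, the mean of all probe sets of a gene, gave 254 rises (1.4%) and 779 falls (4.3%), and a fit with the replicate number as a block 409 (2.26%) and 1114 (6.14%).

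The excess of falls depended on the level of the gene and on the scaling. Genes with a mean level from 5 to 7 had median log2 fold changes of 0.19 to 0.22, and those from 8 to 12 of -0.16 to -0.13. After quantile normalization the medians of the bright classes were -0.00 to 0.06, the median over all genes was 0.09 against 0.08, and the split of calls went from 72.8% lower to 58.6% lower (608 genes, 3.35%, higher and 862, 4.75%, lower). With the hybridization control signal as a covariate it was 61.6% lower (881 genes, 4.86%, higher and 1412, 7.79%, lower). The highest share of falls, 8.89% of genes, was found at levels between 7 and 8, and below a level of 4.5 only 0.293% of genes fell. Of the 858 falls 190 ended at a JQ1 mean under 6, including 38 of the 87 beyond 4-fold, a range reached by control probe sets with no human target, so the sizes of those falls are uncertain.

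**Figure D1:**
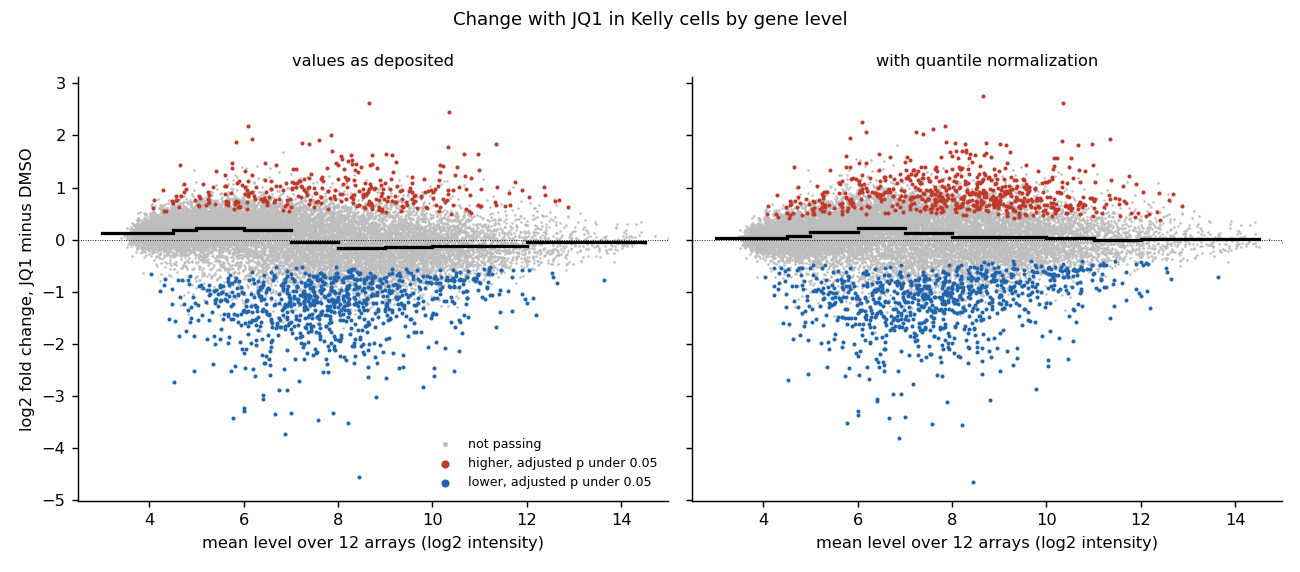
Log2 fold change (JQ1 minus DMSO, vertical) against mean level over the 12 arrays (log2 intensity, horizontal) for 18132 genes, with the values as deposited on the left and after quantile normalization on the right. Red and blue points passed in limma, and the black steps are medians of level classes. The steps lie at 0.22 for genes from 5 to 6 and at -0.16 for genes from 8 to 9 on the left, and at 0.14 and 0.06 on the right, where 608 genes are higher and 862 lower in place of 320 and 858.

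Genes of the transcription machinery that BET proteins serve moved in few members. HEXIM1, which holds P-TEFb inactive and is widely used as a readout of BET inhibition, measured 9.77, 10.03 and 9.74 with DMSO against 11.35, 11.24 and 11.24 with JQ1. It rose 2.69-fold, by 1.43 on the log2 scale (SE 0.17; adjusted p in limma 0.000376), with every JQ1 array above every DMSO array. Its paralog HEXIM2, which binds P-TEFb in the same way, moved oppositely. It measured 7.97, 7.70 and 8.07 with DMSO against 7.19, 6.89 and 6.39 with JQ1 and fell by 1.09 (SE 0.22, adjusted p = 0.00994), a call that ended when both arrays numbered 3 were left out (-0.80, adjusted p = 0.0524). Of the 15 BET and P-TEFb genes measured, 2 rose and 1 fell, and the other riser, BRD2, passed in only 2 of the 6 leave-one-out fits. It measured 10.05, 10.22 and 9.56 with DMSO against 10.92, 10.76 and 10.47 with JQ1 (log2 fold change 0.78, adjusted p = 0.03), and was lost without DMSO replicate 1 (0.0773) or 3 (0.0529) or JQ1 replicate 1 (0.088) or 2 (0.0931). Without JQ1 replicate 3 the list had 4 rises. MYCN did not pass in its brightest probe set (-0.34), and passed with the mean of its 4 probe sets (-0.43, adjusted p = 0.0333), with an offset of 16 (adjusted p = 0.0406) and with a trended, robust prior (0.0286). BRD3 did not pass (0.45), but did after quantile normalization (0.61, adjusted p = 0.0125) and with the control signal as a covariate (0.52, adjusted p = 0.039). Among 40 Mediator and RNA polymerase II genes, MED12, a subunit of the kinase module of Mediator, fell by 0.99 (adjusted p = 0.00344), and the median of the list was -0.20. The 29 SR and hnRNP splicing factors had a median of -0.12, and 1 fell, PTBP2, a neuronal splicing regulator (-1.22; -0.74 over its 3 probe sets). Its call was lost without DMSO replicate 1 or 2 or JQ1 replicate 2 or 3, with adjusted p up to 0.113, and 3 members of the list fell without DMSO replicate 3.

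The genes that carry out growth, the classical output of MYC proteins, shifted by small amounts, mostly downward, and lost their calls easily. Of 184 genes in the growth lists 43 were lower and 2 higher at an unadjusted p under 0.05 in limma. Of 48 MYC target genes 7 fell (14.6%) and 0 rose (1 at an unadjusted p under 0.05), with a median log2 fold change of -0.30 against 0.08 over all genes. Only MYBBP1A, which acts on the transcription of ribosomal RNA genes, passed in all 6 leave-one-out fits. Its probe set measured 8.4, 8.41 and 8.25 with DMSO against 7.52, 7.52 and 6.79 with JQ1 (-1.07, SE 0.21, limma adjusted p = 0.00809; -0.61 with the mean of its 5 probe sets). Every JQ1 array lay below every DMSO array, and JQ1 replicate 3 was lowest. The other 6, NOP16, WDR12, UTP20, NIP7, MRTO4 and PPRC1, are factors of ribosome assembly or mitochondrial biogenesis, had values of -1.25 to -0.59 and passed in 1 to 4 of those fits. NOP16 and WDR12 did not pass with the mean of their probe sets (adjusted p = 0.0781 and 0.0659), and WDR12 missed the threshold with the replicate block (adjusted p = 0.054). Leaving out DMSO replicate 1 or 2 left 1 fall in the list, leaving out JQ1 replicate 2 or 3 left 4 and 2, and leaving out DMSO replicate 3 gave 13. After quantile normalization the median was -0.15.

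Ribosome biogenesis and RNA polymerase I genes followed the same course. Of 63 measured, 3 fell (4.76%, against 4.73% of all genes), namely BRIX1, LTV1 and RRP15, and 0 in all 6 fits. The median was -0.32, and 20 were lower at an unadjusted p under 0.05 while 0 were higher. In 22 members all JQ1 arrays lay below all DMSO arrays and in 0 all lay above (11.6% and 12.1% of all genes did). BRIX1, needed for the large ribosomal subunit, measured 11.74, 12.06 and 11.41 with DMSO against 10.74, 10.75 and 10.53 with JQ1 (-1.06, adjusted p = 0.0109), and was lost without DMSO replicate 2 (0.0528). With the mean of their probe sets LTV1 and RRP15 did not pass (adjusted p = 0.0794 and 0.0934). The count for the list was 0 without DMSO replicate 2, 11 without DMSO replicate 3, 8 with the replicate number as a block and 10 with the control signal as a covariate. All 20 aminoacyl-tRNA synthetases missed the threshold in limma (6 lower and 0 higher at an unadjusted p under 0.05), with a median of -0.28, and 4 fell without DMSO replicate 3. IARS1, which charges isoleucine tRNA, had a log2 fold change of -0.61 (adjusted p = 0.13). Of 37 translation initiation factors EIF4EBP2, a repressor of cap-dependent initiation, rose by 0.96 (adjusted p = 0.00768). With the mean of its 5 probe sets it had a value of 0.42 (adjusted p = 0.136).

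A single member of the RNA polymerase III list stood apart from it. GTF3C6, a subunit of the factor TFIIIC that opens tRNA genes to this polymerase, measured 11.67, 11.90 and 11.52 with DMSO against 9.34, 9.37 and 8.84 with JQ1. It fell 5.70-fold (-2.51, SE 0.25, limma adjusted p = 8.27e-05), a gap of over 2 between the groups on the log2 scale. It was the only one of 20 to pass, the median of the list was -0.32, and 3 fell without DMSO replicate 3. GTF3C6 is read by 1 probe set, whose suffix _s_at means that the probes can match related transcripts.

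Of the 58 gene lists examined, the histone genes of the replication clusters had the highest share of rises at the threshold. These genes encode the bulk histones made in S phase, and their messages normally end in a stem-loop in place of a poly(A) tail. Of 54 measured, 12 rose (22.2%) and 0 fell in limma (0 at an unadjusted p under 0.05 as well, where 33 were higher). The median log2 fold change was 0.60, 1 member had a value below 0, and in 26 members all JQ1 arrays lay above all DMSO arrays (12.1% of all genes did). The count of rises was 8 without DMSO replicate 1 or JQ1 replicate 2, 16 without JQ1 replicate 3 and 18 without DMSO replicate 3, and 8 members passed in all 6 fits.

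By type of histone, the rises that passed were of H2A, H2B and H3 genes. Among H2A genes 4 of 13 rose, among H2B genes 5 of 16 and among H3 genes 3 of 10, while 0 of 10 H4 genes and 0 of 5 linker H1 genes passed. The medians of the types were nevertheless close, 0.53 for H4 and 0.89 for H1 against 0.60 to 0.68 for the others, and no difference between types was tested. H2BC5 measured 8.47, 8.46 and 8.41 with DMSO against 11.08, 10.97 and 10.64 with JQ1 (2.45, SE 0.15, adjusted p = 2.04e-06). H2AC11 measured 6.31, 6.46 and 7.11 against 8.76, 8.59 and 8.53 (2.00, adjusted p = 0.000178). Both had gaps between the groups that were wider than either group. Probe sets that can match related genes (_s_at or _x_at) read 26 of the 54, of which 5 rose, and the more specific types read 28, of which 7 rose, so the members are not all separate counts.

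The promoters of these histone genes share short sequence elements that the lists did not use. The windows below run from 250 bases before to 50 after the start of the gene in RefSeq (GRCh38.p14) and are shown because these 3 genes, H2BC5, H2AC6 and H2AC11, rose together and differ in the octamer. Capitals mark matches on either strand to TATAAA (the TATA box), CCAAT (the CCAAT box), ATTTGCAT (the octamer, bound by OCT1) or CACGTG (the E-box). H2BC5 lies at chr6:26157871-26158170, H2AC6 at chr6:26123922-26124221 and H2AC11 at chr6:27132793-27133092, all on the plus strand.
H2BC5: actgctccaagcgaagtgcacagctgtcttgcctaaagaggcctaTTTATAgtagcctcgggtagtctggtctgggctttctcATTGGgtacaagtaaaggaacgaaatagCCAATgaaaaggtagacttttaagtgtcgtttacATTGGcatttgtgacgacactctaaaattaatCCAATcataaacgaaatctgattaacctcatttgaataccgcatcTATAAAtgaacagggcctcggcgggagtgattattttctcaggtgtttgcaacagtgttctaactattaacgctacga
H2AC6: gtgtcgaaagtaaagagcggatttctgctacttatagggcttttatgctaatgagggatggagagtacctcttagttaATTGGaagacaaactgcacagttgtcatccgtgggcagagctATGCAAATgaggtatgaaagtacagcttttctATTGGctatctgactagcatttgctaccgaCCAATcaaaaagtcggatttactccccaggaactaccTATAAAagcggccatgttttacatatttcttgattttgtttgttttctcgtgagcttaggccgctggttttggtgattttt
H2AC11: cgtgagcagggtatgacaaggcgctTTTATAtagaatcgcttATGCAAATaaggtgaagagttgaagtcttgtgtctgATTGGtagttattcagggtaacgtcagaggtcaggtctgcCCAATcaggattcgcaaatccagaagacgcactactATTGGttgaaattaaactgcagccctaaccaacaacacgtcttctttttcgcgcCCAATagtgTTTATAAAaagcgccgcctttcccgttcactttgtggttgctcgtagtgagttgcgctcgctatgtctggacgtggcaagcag

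All 3 windows hold a TATA box that begins at -31 or -28 from the start and 3 or 4 CCAAT boxes. Counted from the start, the octamer begins at -130 in H2AC6 and at -208 in H2AC11, and these letters are not in the window of H2BC5. Of the 49 histone genes of the list with a window, 49.0% held the octamer, 89.8% a CCAAT box and 65.3% a TATA box, against 1.8%, 35.7% and 12% of all 27305 windows of this length. Among the histone genes that rose the octamer was in 9 of 11, and among those that did not pass in 15 of 38 (81.8% and 39.5%). Over all genes with a window it was in 6.0% of those that rose and in 1.42% of those that fell, and the histone genes are part of the first share. The E-box, the element that MYC proteins bind, was in 10.8% of the genes that fell, 8.80% of those that rose and 8.82% of the 14425 measured genes with a window. In the 39 MYC target genes with a window it was in 48.7%, and in 3 of the 7 that fell. A match describes the letters only, and no test was made on these shares.

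Other chromatin genes changed in single members. ZMYND8, a reader of acetylated histones that works with demethylases, measured 10.35, 10.55 and 10.49 with DMSO against 9.04, 8.71 and 8.30 with JQ1 and fell by 1.78 (SE 0.21, limma adjusted p = 0.00035; -1.71 over its 7 probe sets). It was 1 of 2 passing genes among 47 Polycomb, bromodomain and acetyltransferase genes, whose median was 0.03, and 3 rose and 2 fell there without DMSO replicate 3 (3 rose with the replicate block). HDAC9 was the only 1 of 18 deacetylase and sirtuin genes to fall, and had -1.03 with the mean of its probe sets in place of -3.33, and 3 of that list fell without DMSO replicate 3. SNHG12, a host gene of small nucleolar RNAs, rose by 0.99 (adjusted p = 0.00812; 0.0543 with the Kelly arrays alone).

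Catecholamine metabolism had the highest share of falls of the 58 lists. Of 15 genes for the synthesis, storage and breakdown of catecholamines, 6 fell (40.0%), 5 of them in all 6 leave-one-out fits, and 1 rose, with a median of -0.64. This count stayed at 5 or 6 in every leave-one-out fit. The 5 were TH, the rate-limiting hydroxylase, the decarboxylase DDC, the vesicular transporter SLC18A1, the vesicle cytochrome CYB561 that supplies electrons to DBH, and the degrading oxidase MAOA, and the other 8 of the list did not pass. MAOA measured 11.86, 12.02 and 11.06 with DMSO against 8.73, 8.41 and 7.81 with JQ1 (-3.33, SE 0.27, limma adjusted p = 2.35e-05). SLC18A1 measured 8.17, 8.54 and 7.60 against 6.48, 6.07 and 5.42 (-2.11, SE 0.33, adjusted p = 0.00182). In both, array number 3 was the lowest of its group, and the groups were more than 1 apart. CYB561 fell by 1.12 (adjusted p = 0.00238), and was named after its value was seen. DBH, which makes noradrenaline, had a value of -0.98 (adjusted p = 0.0345) and passed in only 1 leave-one-out fit, that without DMSO replicate 2, and not after quantile normalization (adjusted p = 0.125). DDC fell by 1.68, and by 0.62 with the mean of its 3 probe sets. GCH1, which makes the cofactor of TH, went the other way, from 7.35, 7.20 and 7.62 to 8.96, 8.83 and 8.99 (1.53, SE 0.16, adjusted p = 0.000144).

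Of 34 genes for granins, peptide processing and neuropeptides 5 fell (14.7%) and 2 rose (5.88%), against 4.73% and 1.76% of all genes. All 7 passed in all 6 leave-one-out fits. Without DMSO replicate 3 the falls were 9, and with the replicate number as a block 8. The granin SCG2 measured 8.81, 9.02 and 7.89 with DMSO against 10.29, 10.23 and 10.16 with JQ1 and rose by 1.65 (SE 0.24, limma adjusted p = 0.00122). VGF, a granin-like precursor, rose by 0.93 (adjusted p = 0.0084; 0.0501 with the Kelly arrays alone). The 5 that fell encode precursors of secreted peptides: SST (somatostatin), CARTPT (the CART peptide), NPY (neuropeptide Y), NMB (neuromedin B) and GAL (galanin, named after its value was seen). CARTPT measured 9.14, 9.20 and 8.5 with DMSO against 5.75, 5.75 and 5.65 with JQ1 (-3.23, SE 0.18, adjusted p = 1.24e-06). NMB fell by 1.09 and NPY by 1.28, the latter from 6.41 to 5.13, a level that control probe sets without a target also reach.

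Receptors and channels at the cell surface fell in a minority of members, and those that fell spanned several transmitter classes. Of 89 transmitter receptors 8 fell (8.99%), 6 in all 6 fits, and 0 rose (9 higher at an unadjusted p under 0.05), with a median of 0.17 and a median level of 5.38. OPRL1, the nociceptin receptor, measured 9.09, 8.81 and 9.41 with DMSO against 5.58, 5.45 and 5.08 with JQ1 (-3.73, SE 0.20, limma adjusted p = 1.15e-06; -1.67 over both probe sets). The serotonin-gated channel HTR3A fell by 2.62 (-1.66 over both probe sets), the ATP-gated channel P2RX5 by 3.51 and the glutamate receptor GRM8 by 1.56 (-0.72 over both). GRM8 went from a mean of 6.12 to 4.56, levels that control probe sets with no human target also reached (up to 6.17 with DMSO and 6.95 with JQ1).

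Of 37 voltage-gated calcium and sodium channel genes 3 fell (8.11%, against 4.73% of all genes), 2 in all 6 fits (5.41%, against 2.38%). SCN1A, a sodium channel, measured 7.09, 8.08 and 8.11 with DMSO against 5.04, 5.28 and 5.81 with JQ1 (-2.38, SE 0.28, adjusted p = 0.000335). CACNA2D2, an auxiliary calcium channel subunit, fell by 2.30 (-1.50 over both probe sets). Among 73 potassium channel genes 5 fell (6.85%, against 4.73% of all genes), 2 in all 6 fits (2.74%, against 2.38%). These 2 were the inward rectifier KCNJ12, by 1.15 (adjusted p = 0.00174), and KCNH1, by 1.25. With both probe sets averaged KCNH1 had -0.46 (adjusted p = 0.112). Its group means, 6.04 and 4.79, lay below what control probe sets with no human target reached (up to 6.17 with DMSO and 6.95 with JQ1). The potassium channel count was 3 without DMSO replicate 1 or 2 or JQ1 replicate 2 or 3. Among 54 synaptic vesicle genes 4 fell (7.41%) and 2 rose (3.7%), against 4.73% and 1.76% of all genes. At levels from 7 to 8, where the median level of the list lay (7.07), 8.89% of genes fell and 2.18% rose. RIMS2, a scaffold of the release site, fell by 1.22 (adjusted p = 0.0029) and the calcium sensor SYT6 by 1.17 (adjusted p = 0.00406), and these were the only 2 of the 6 that passed in all leave-one-out fits. The falls counted 2 without DMSO replicate 1, and the rises 0 without DMSO replicate 1 or 2 or JQ1 replicate 3 and 4 without DMSO replicate 3.

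Axon guidance genes moved both ways. Of 70 measured, 8 fell (11.4%) and 3 rose (4.29%), against 4.73% and 1.76% of all genes. In all 6 fits 7 fell and 1 rose, and the median of the list was 0.22. The guidance receptor ROBO1 measured 9.45, 9.19 and 10.16 with DMSO against 10.97, 11.01 and 11.04 with JQ1 and rose by 1.4 (SE 0.25, limma adjusted p = 0.00456; 0.61 over its 3 probe sets). Its ligand family member SLIT3 fell by 1.36 (SE 0.25, adjusted p = 0.00577). The semaphorin receptor PLXNA4 (-2.18), the ephrin EFNB3 (-1.49) and the semaphorin SEMA6D (-1.42) fell when read from the brightest probe set. With the mean of their probe sets these 3 were at -0.58, -0.34 and -0.35 and did not pass (adjusted p = 0.0769, 0.141 and 0.0944). SEMA6D went from a mean of 6.38 to 4.96, and control probe sets with no human target reached up to 6.17 with DMSO and 6.95 with JQ1. The rises counted 1 without DMSO replicate 1 or any JQ1 array and 5 without DMSO replicate 3.

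Among 41 genes of axon growth and the neuronal cytoskeleton 6 fell (14.6%) and 4 rose (9.76%), against 4.73% and 1.76% of all genes. In all 6 fits 3 fell (7.32%) and 1 rose (2.44%), against 2.38% and 0.579%. NEFM, the medium neurofilament of mature axons, measured 9.99, 10.18 and 10.01 with DMSO against 10.95, 11.28 and 10.98 with JQ1 and rose by 1.01 (SE 0.14, adjusted p = 0.000992). The ankyrin ANK3, which anchors channels at the axon's initial segment, fell by 1.72 (adjusted p = 0.00199), and DCX, a microtubule protein of migrating neurons, by 1.53 (-0.65 over its 5 probe sets). The group means of ANK3 were 6.49 and 4.77, and control probe sets with no human target reached up to 6.17 with DMSO and 6.95 with JQ1. ANK2 fell by 1.74, but had -0.39 over its 5 probe sets (adjusted p = 0.103). The falls counted 3 without DMSO replicate 2 or JQ1 replicate 2, and the rises 1 without DMSO replicate 1 or 2 and 2 without JQ1 replicate 2.

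Of 102 protocadherins and cadherins 9 fell (8.82%) and 4 rose (3.92%), against 4.73% and 1.76% of all genes. The 3 rises that passed in all 6 fits were PCDH9 (1.65), PCDH7 (1.48; 0.74 over its 5 probe sets) and PCDH17 (1.38), adhesion molecules of the non-clustered group. The 5 such falls were PCDHB5 (-2.49) and PCDHB10 (-1.65) of the clustered beta group, and the non-clustered PCDH1 (-1.62; -0.69 over its 4 probe sets), the cadherin CDH11 (-1.24; -0.76 over its 6) and the non-clustered PCDH18 (-1.20), whose 5 probe sets averaged -0.57 and did not pass (adjusted p = 0.0651). PCDH9 measured 8.74, 8.83 and 8.60 with DMSO against 10.46, 10.27 and 10.41 with JQ1 (SE 0.14, limma adjusted p = 2.4e-05; 1.08 over its 3 probe sets). PCDHB5 measured 9.05, 9.15 and 9.22 against 7.13, 6.82 and 6.02 (SE 0.25, adjusted p = 8.27e-05), with JQ1 replicate 3 lowest. The falls counted 5 without DMSO replicate 1 or 2, and the rises 7 without DMSO replicate 3.

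Of 43 collagen genes 3 fell (6.98%, against 4.73% of all genes) and 0 rose (2 at an unadjusted p under 0.05). All 3 fell in all 6 fits, and the list's median was 0.19. The largest fall was that of COL6A6, a chain of type VI collagen (-3.34). Of 35 integrin and laminin genes 2 fell (5.71%), LAMB1 and ITGA4 (-1.21; -0.34 over its 5 probe sets, adjusted p = 0.252). ITGA4 went from a mean of 6.19 to 4.99, and control probe sets with no human target reached up to 6.17 with DMSO and 6.95 with JQ1. COL4A1 and COL4A2 encode the chains that form type IV collagen, the main collagen of basement membranes, and LAMB1 a laminin chain of the same sheet. COL4A1 measured 7.84, 7.97 and 7.13 with DMSO against 5.54, 5.76 and 5.47 with JQ1 (-2.06, SE 0.26, limma adjusted p = 0.000494; -0.69 over its 3 probe sets). COL4A2 measured 9.0, 8.99 and 8.23 against 7.45, 7.27 and 6.51 (-1.66, SE 0.28, adjusted p = 0.00353; -1.05 over its 3). LAMB1 measured 8.73, 9.32 and 7.98 against 6.91, 7.04 and 6.05 (-2.01, adjusted p = 0.00707; -1.21 over both). In each the groups did not overlap, and DMSO replicate 3 was the lowest of the DMSO arrays.

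COL4A1 and COL4A2 start 127 bases apart on opposite strands of chromosome 13 and share 1 promoter region. It is shown for COL4A1 because both fell (RefSeq, GRCh38.p14, chr13:110307108-110307407, minus strand, capitals for the CCAAT box).
COL4A1: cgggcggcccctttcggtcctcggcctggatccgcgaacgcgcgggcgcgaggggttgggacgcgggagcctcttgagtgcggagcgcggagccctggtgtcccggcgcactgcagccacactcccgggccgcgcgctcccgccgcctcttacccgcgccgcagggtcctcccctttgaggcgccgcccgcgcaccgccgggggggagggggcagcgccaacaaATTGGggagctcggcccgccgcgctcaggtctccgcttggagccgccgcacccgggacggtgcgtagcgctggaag
This window holds 1 CCAAT box, which begins at -26 from the COL4A1 start, and no match to the other 3 elements.

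The list of receptor tyrosine kinases and neurotrophin receptors, which also holds the ligand PTN, gave 8 falls and 1 rise among 44 genes. The falls were 18.2%, against 4.73% of all genes, and 6 falls and 1 rise held in all 6 fits. FGFR1, a fibroblast growth factor receptor, measured 7.94, 8.11 and 7.98 with DMSO against 9.23, 9.20 and 9.02 with JQ1 and rose by 1.14 (SE 0.16, limma adjusted p = 0.000884; 0.50 over its 7 probe sets). RET, the receptor of GDNF family ligands in sympathetic neurons, measured 10.53, 10.59 and 10.10 against 9.20, 8.99 and 8.42 and fell by 1.54 (SE 0.20, adjusted p = 0.000653). DDR2, a collagen receptor, fell by 1.42, and PTN, a growth factor that signals through ALK, fell by 1.30 (adjusted p = 0.00793; 0.0552 with the Kelly arrays alone). MET, the receptor of hepatocyte growth factor, fell by 1.91 in its brightest probe set, and with the mean of 6 probe sets had -0.36 (adjusted p = 0.202). Among 25 ERK feedback genes DUSP2, a nuclear phosphatase that inactivates ERK, fell by 1.98 (SE 0.21, adjusted p = 0.000154), from 7.63, 7.20 and 6.96 to 5.29, 5.20 and 5.36. All 29 immediate-early genes missed the threshold in limma, with 6 higher and 0 lower at an unadjusted p under 0.05. JUN had 0.92 (adjusted p = 0.107) and DUSP1 0.90 (adjusted p = 0.0537), and 2 members rose without DMSO replicate 1 or without JQ1 replicate 3 and 1 without DMSO replicate 3. With the replicate number as a block both passed (adjusted p = 0.0466 and 0.0242) and 2 members rose, with quantile normalization 3 rose, and with the control signal as a covariate 4 rose and 1 fell.

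Developmental pathways each had a few members that changed. In the NOTCH list of 36 genes 3 fell (8.33%) and 1 rose (2.78%), against 4.73% and 1.76% of all genes. Its median level was 7.27, and of the genes at levels from 7 up to 8, 8.89% fell and 2.18% rose. HES6, a neurogenic member of the HES family that opposes HES1, measured 9.51, 9.12 and 10.48 with DMSO against 11.38, 11.53 and 11.53 with JQ1 and rose by 1.77 (SE 0.32, limma adjusted p = 0.00542). The coactivator MAML3 fell by 1.65 in its brightest probe set and had -0.33 over 4 (adjusted p = 0.269), while the ligand-like DLK1 fell by 0.77 and by 1.61 over its 4 probe sets. DLK1 missed the threshold with the Kelly arrays alone (adjusted p = 0.0625). Without DMSO replicate 3 the list had 4 rises.

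Of 65 WNT genes 5 fell (7.69%, against 4.73% of all genes) and 0 rose (7 at an unadjusted p under 0.05). They included LEF1, the transcription factor through which beta-catenin acts, by 2.42 (SE 0.27, adjusted p = 0.000196; -0.74 over its 9 probe sets), and DKK1, a secreted inhibitor of WNT receptors, by 1.64 (adjusted p = 0.00729). DKK3 passed in its brightest probe set (-1.30), and its 6 probe sets averaged -0.04 (adjusted p = 0.849). The falls counted 3 without DMSO replicate 1 or JQ1 replicate 2 or 3, and 2 WNT genes rose without DMSO replicate 3.

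Among 51 BMP and TGF-beta genes 5 fell (9.8%) and 3 rose (5.88%), against 4.73% and 1.76% of all genes. BMP7, a ligand, fell by 1.42 (adjusted p = 0.00811), and the inhibitory SMAD6 by 1.11 (-0.49 over its 3 probe sets). ID4, an inhibitor of bHLH factors that BMP signals usually induce, rose by 1.12 (adjusted p = 0.00344) and GDF11, another ligand of the superfamily, by 1.05 (adjusted p = 0.00105). The falls counted 2 without DMSO replicate 1 or 2 or JQ1 replicate 3. Of 33 hedgehog and retinoic acid genes 4 fell (12.1%, against 4.73% of all genes). STRA6, which takes up retinol, fell by 1.78 (adjusted p = 0.00109; -0.95 over its 4 probe sets), and GLI2 by 1.10, with -0.15 over its 9 (adjusted p = 0.399).

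Transcription factors of the adrenergic state moved in both directions. Of 25 measured, 6 fell (24.0%) and 3 rose, 5 and 2 in all 6 fits, and the count of falls stayed between 5 and 8 in the leave-one-out fits. LMO1, a neuroblastoma risk gene and transcriptional cofactor, measured 7.83, 7.81 and 7.41 with DMSO against 5.99, 5.98 and 6.46 with JQ1 (-1.55, SE 0.19, limma adjusted p = 0.000396). TFAP2B, a neural crest factor, measured 11.42, 11.42 and 11.63 against 10.27, 10.41 and 10.41 (-1.12, SE 0.15, adjusted p = 0.000696; -1.84 over its 3 probe sets). Members of the same family went opposite ways: LMO1 and LMO3 fell (LMO3 by 1.91, or 1.09 over its 9 probe sets), and LMO4 rose from 10.89, 10.88 and 11.28 to 12.26, 12.30 and 12.18 (1.23, SE 0.15, adjusted p = 0.000476). SOX11 rose by 1.26 (adjusted p = 0.00134) and KLF7 fell by 1.65 (adjusted p = 0.00128). PHOX2A, HAND2, GATA3 and ISL1, core members of the circuit, did not pass (PHOX2A did after quantile normalization, 0.66, adjusted p = 0.0205, and with the covariate, 0.51, adjusted p = 0.0385), with group means of 10.05 and 10.56, 12.96 and 13.10, 11.97 and 11.81, and 10.69 and 10.62 (DMSO first). Of 27 HOX genes 4 fell (14.8%, against 4.73% of all genes) and 0 rose (2 at an unadjusted p under 0.05). All 4 that fell are of the HOXC cluster. HOXC8 and HOXC9 (-1.44, SE 0.21, adjusted p = 0.00134) held in all 6 fits, while HOXC4 (-0.79) and HOXC6 (-0.62) passed in none of them, so the count was 2 in each, as it was after quantile normalization.

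Genes of the cell division cycle were lower in the median and rarely passed. Of 62 mitosis genes 3 fell (4.84%, against 4.73% of all genes) and 0 rose (0 at an unadjusted p under 0.05, against 17 lower). In all 6 fits 0 fell, and the median was -0.40, or -0.22 after quantile normalization. The falls counted 0 without JQ1 replicate 3, 1 without DMSO replicate 1 and 13 without DMSO replicate 3, and the replicate block gave 8. KIF14, a motor needed for cytokinesis, measured 7.77, 9.10 and 8.0 with DMSO against 6.45, 7.26 and 6.07 with JQ1 (-1.69, limma adjusted p = 0.0114), and was lost without JQ1 replicate 3 (0.0551), with the Kelly arrays alone (0.057) and with the mean of both probe sets (0.0559). In the DNA replication list 1 of 48 fell, POLE2 (-2.15, adjusted p = 0.0143), a subunit of the leading-strand polymerase. It was lost without DMSO replicate 1 (0.071) or 2 (0.0662) or JQ1 replicate 3 (0.0561), and 6 members fell without DMSO replicate 3 and 3 with the replicate block. One brake of the cycle rose. CDKN2D, the p19 inhibitor of CDK4 and CDK6, measured 7.01, 7.18 and 6.81 with DMSO against 8.81, 8.65 and 7.93 with JQ1 (1.47, SE 0.24, adjusted p = 0.00244) and was the only passing gene of 29 cyclins, CDKs, E2F and RB genes. Without DMSO replicate 3 there were 3 rises and 4 falls in that list.

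Among cell death genes the 3 falls that held were on opposite sides of the process. BCL2, the survival protein, measured 6.55, 6.84 and 6.69 with DMSO against 5.76, 5.77 and 5.83 with JQ1 and fell by 0.90 (SE 0.17, limma adjusted p = 0.00724). TNFRSF10B, a death receptor for TRAIL, fell by 1.64 (SE 0.22, adjusted p = 0.000825), from 9.49, 9.52 and 8.95 to 7.95, 7.83 and 7.26, and by 0.53 with the mean of its 3 probe sets. The executioner caspase CASP6 fell by 0.79 (adjusted p = 0.00958; 0.0718 with the Kelly arrays alone). These 3 were among 35 genes of the BCL2 family, death receptors and caspases, whose median was 0.00, and in which BCL2L11, a promoter of cell death, passed with 0.84 in 4 of the 6 leave-one-out fits (3 rises without DMSO replicate 3). BCL2L11 missed the threshold with the replicate block (adjusted p = 0.0518) and with the mean of its probe sets (0.23, adjusted p = 0.242). The JQ1 means of BCL2 (5.79) and CASP6 (6.06) lay below the 6.95 that control probe sets with no human target reached with JQ1. Their DMSO means (6.69 and 6.85) lay above the 6.17 that these controls reached with DMSO. Of all genes 4.73% fell and 1.76% rose, and of 28 p53 targets 3 fell (10.7%) and 2 rose (7.14%). TNFRSF10B is one of them, and TP53I3, a quinone reductase induced by p53, rose by 1.15 (adjusted p = 0.00828; 0.062 with the Kelly arrays alone). The falls of this list counted 1 without DMSO replicate 2.

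In metabolism, falls were scattered over pathways. Of 27 genes of purine, pyrimidine and folate synthesis 2 fell (7.41%, against 4.73% of all genes), both in all 6 fits, with a median of -0.39. The median level of the list was 10.55, and 7.04% of genes at levels from 10 to 11 fell. CTPS2, which makes CTP, measured 8.28, 8.59 and 7.78 with DMSO against 6.39, 6.34 and 5.43 with JQ1 (-2.16, SE 0.36, limma adjusted p = 0.00278), and the mitochondrial folate enzyme MTHFD1L fell by 1.53 (SE 0.21, adjusted p = 0.000865). Without DMSO replicate 3 the count was 6. Of 72 respiratory chain and ATP synthase genes 5 fell (6.94%, against 4.73% of all genes). NDUFC1, a subunit of complex I, fell by 1.49 (adjusted p = 0.00542) and ATP5MC1, a chain of the rotor ring of ATP synthase, by 1.09 (adjusted p = 0.00278). That list's count was 2 without DMSO replicate 1 or 2 or JQ1 replicate 3, 3 without JQ1 replicate 2 and 12 without DMSO replicate 3. PFKP, a phosphofructokinase of glycolysis, fell by 1.35 (adjusted p = 0.00181), and the small heat shock protein HSPB1 fell by 1.18 (adjusted p = 0.00109).

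Lysosome and autophagy genes gave rises and no falls. Of 49 measured, 5 rose (10.2%) and 0 fell (3 at an unadjusted p under 0.05), 1 in all 6 fits, with a median of 0.03. The sialidase NEU1 measured 9.03, 8.91 and 8.99 with DMSO against 9.86, 9.90 and 9.54 with JQ1 (0.79, SE 0.14, limma adjusted p = 0.00466; 0.0585 with the Kelly arrays alone). The rises counted 1 without DMSO replicate 1 or JQ1 replicate 2, 2 without DMSO replicate 2 and 3 without JQ1 replicate 1, and 2 members fell without DMSO replicate 3. Cholesterol synthesis and sterol control gave 3 rises and 3 falls among 26 genes (11.5% each, against 1.76% and 4.73% of all genes). In all 6 fits 0 of them passed, and each direction counted 0 to 3 over the leave-one-out fits. There were 0 rises without JQ1 replicate 2, and 0 falls without DMSO replicate 1 or 2 or JQ1 replicate 2 or 3. The 13 polyamine genes had a median of 0.28, and 0 passed in limma (3 higher and 1 lower at an unadjusted p under 0.05). The second messenger enzyme PDE4B, which degrades cAMP, was the only 1 of 50 phosphodiesterase and adenylyl cyclase genes to pass (-2.98, SE 0.24, adjusted p = 2.24e-05; -0.87 over its 4 probe sets).

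When the lists were pooled by theme, calls held to different extents. Of 479 different genes in the neuronal lists 48 fell (10.0%), 33 of them in all 6 leave-one-out fits (6.89%, against 2.38% of all genes), and 15 rose. Of 83 genes in the lists of transcription factors for identity 11 fell (13.3%), 7 in all 6 (8.43%). Falls in all 6 were also above the share of all genes in the lists for cell death (3 of 35, 8.57%), adhesion (10 of 180, 5.56%) and signalling (18 of 387, 4.65%). They made up 4.17% of the marker genes, 2.38% of the transcription genes, 2.01% of the metabolism genes and 1.44% of the chromatin genes. Of 184 genes in the growth lists 11 fell (5.98%) and 2 held in all 6 (1.09%), and of 198 cell cycle genes 7 fell (3.54%) and 1 held (0.505%). The median log2 fold change ran the other way, 0.13 in the neuronal lists and -0.25 in the growth lists, at median levels of 6.31 and 10.00. Medians at these levels shift with the scaling, as shown above for all genes, and the difference between themes was not tested.

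**Figure D2:**
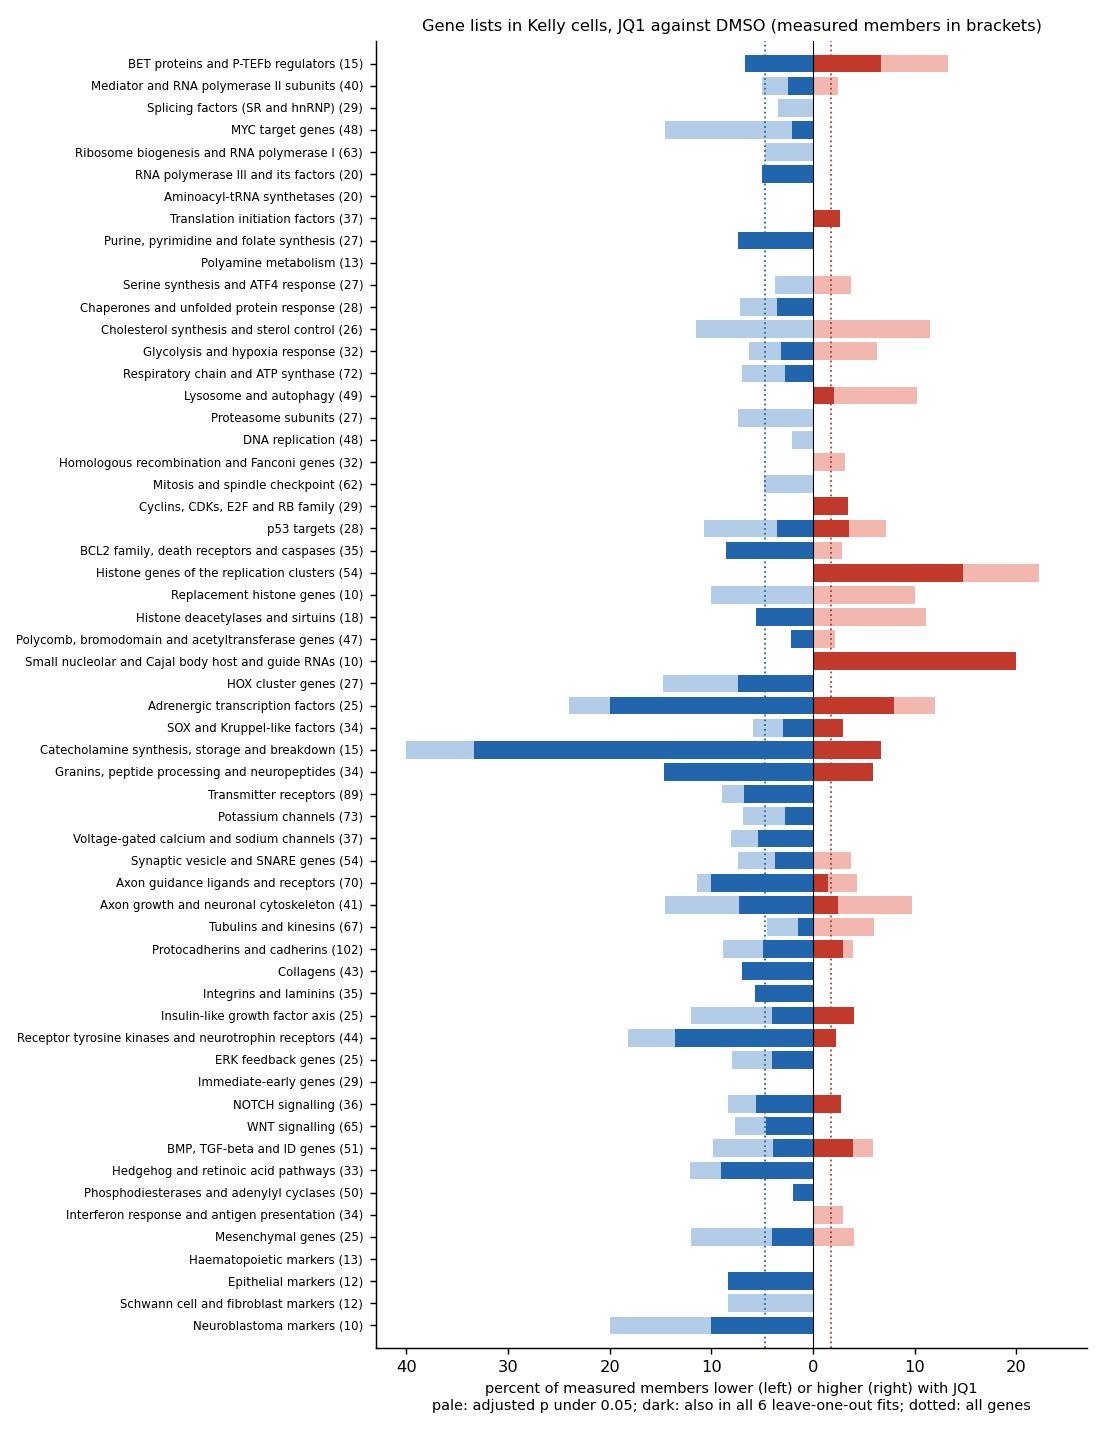
Share of the measured members of each list (number in brackets) that was lower (left) or higher (right) with JQ1, in percent. Pale bars passed in limma, dark bars also in all 6 leave-one-out fits, and dotted lines mark all genes, 4.73% lower and 1.76% higher. The catecholamine list reaches 40.0% lower and the histone list 22.2% higher, while the pale bar of the MYC target genes (14.6%) has a dark part of 2.08%.

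**Figure D3:**
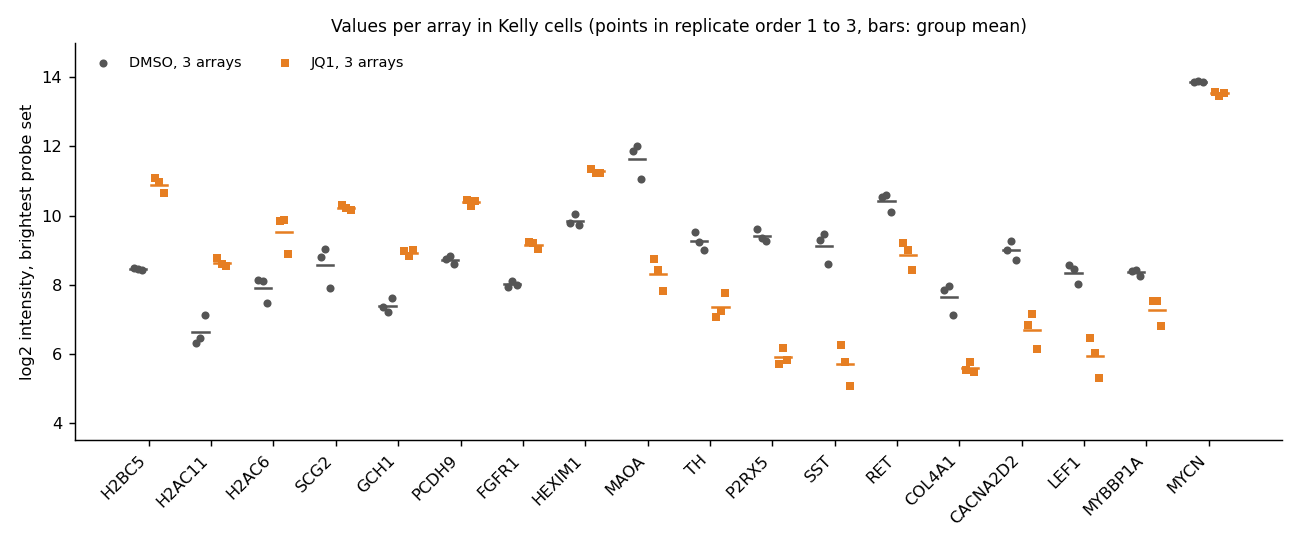
Log2 intensity of the brightest probe set of 18 genes in each Kelly array, DMSO as grey circles and JQ1 as orange squares, with bars at the group means. In all 18 the groups are apart. H2BC5 lies between 8.41 and 8.47 with DMSO and between 10.64 and 11.08 with JQ1, and MYCN at 13.87 and 13.53, a difference that did not pass.

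Probe sets that read the same gene often gave different sizes. Of 11734 genes with more than 1 probe set, 56% had the same sign in all of them, and the median range of log2 fold change within a gene was 0.40. Of the called genes, 308 had only 1 probe set. For the 636 falling genes with several, 77.0% of the 1509 other probe sets had the same sign, and 27.4% passed the same way when all 44988 probe sets were tested (1958 of all probe sets passed, 4.35%, of which 1527, 3.39%, fell and 431, 0.958%, rose). For the 234 rising genes these shares were 87.6% and 14.1% of 540.

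The level of the other probe set went with its agreement. Among falling genes, other probe sets at a mean level of 7 or more passed the same way in 54.3% of cases, had the same sign in 96.7% and a median change of 0.96 times that of the brightest. Between 5 and 7 they passed in 20.6% with a median ratio of 0.39, and below 5 in 6.63% with a ratio of 0.03. Among rising genes the ratios were 0.72, 0.36 and 0.22. In 85 falling genes every other probe set had the opposite sign, and in 93 every other probe set passed too. Reading only the brightest probe set also left out changes: 377 genes passed through another probe set alone, 89 higher and 288 lower.

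**Figure D4:**
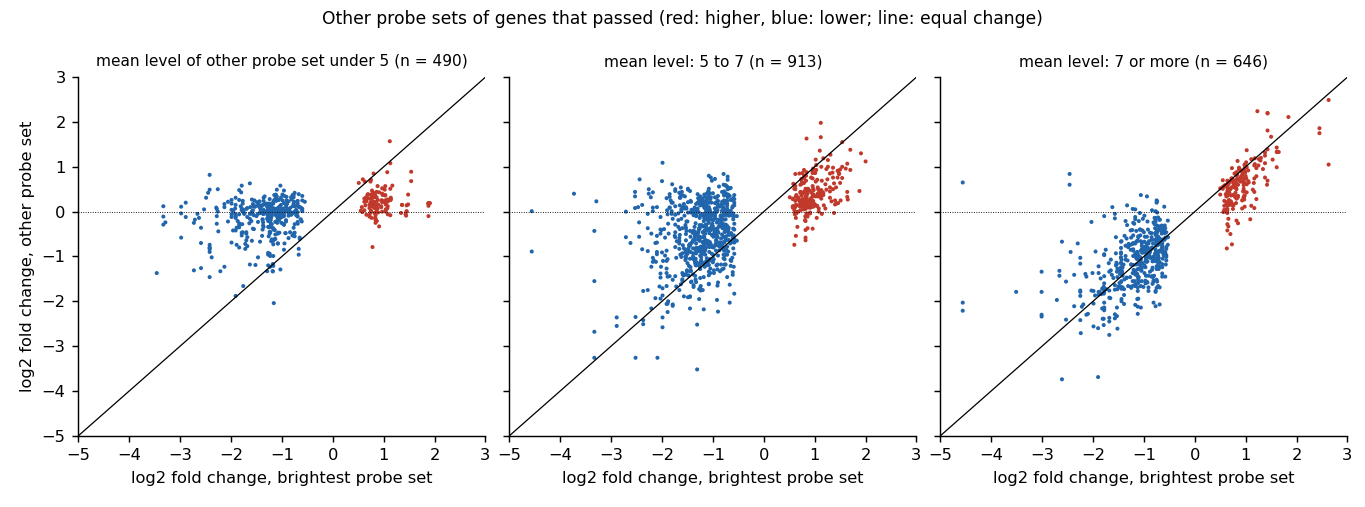
Log2 fold change of each other probe set (vertical) against that of the brightest probe set of the same gene (horizontal), for genes that passed, red for risen and blue for fallen, in 3 panels by the mean level of the other probe set. The diagonal marks equal change. At a level of 7 or more the blue points follow the diagonal (median ratio 0.96), and below 5 they lie along 0 (median ratio 0.03).

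Of 3822 genes with at least 4 probe sets, 16 had every probe set past the threshold in 1 direction, 2 higher and 14 lower. The 6 with the largest smallest change were RAB29, ARL6IP5, NSG2, MTMR2, HEXIM1 and MTUS1. RAB29, a small GTPase of the Golgi and lysosome, had 5 probe sets with changes of -2.56 to -1.71 (limma adjusted p from 6.73e-05 to 0.0175). In its brightest probe set it measured 9.70, 9.44 and 9.42 with DMSO against 7.79, 7.30 and 7.51 with JQ1. ARL6IP5, a regulator of glutamate transport, had -2.38 to -1.57 over 4 probe sets, and NSG2, a neuron-specific endosomal protein, -2.0 to -1.44 over 4 at levels up to 12.20. MTMR2, a phosphoinositide phosphatase, had -2.51 to -1.41 over 4 and MTUS1, a microtubule-associated tumour suppressor, -3.01 to -1.34 over 5. HEXIM1 had 1.39 to 2.20 over 5.

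The opposite pattern, a wide range within 1 gene, was greatest among passing genes with at least 4 probe sets in IGFBP5, CELF2, HDAC9, LEF1, CD9 and PDE4B. IGFBP5, which binds insulin-like growth factors, ranged from -4.56 to 0.65, with 3 of 6 probe sets falling and a mean of -1.51. CELF2, an RNA-binding splicing factor, ranged from -2.58 to 1.09 over 10, with a mean of -0.57. CD9, a tetraspanin of the cell surface, had 6 bright probe sets that all fell (-2.53 to -1.68), and 3 dim ones at 0.07 to 0.58. The bright ones of CD9 passed in 2 to 6 of the leave-one-out fits. The call of its gene was lost without DMSO replicate 1 (adjusted p = 0.0564). PDE4B fell by 2.98 in its brightest probe set, and the other 3, at mean levels of 4.31 to 4.58, had -0.58 to 0.11, which gave a mean of -0.87. Control probe sets without a target also reach the levels of these dim probe sets.

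In 2 genes probe sets passed in opposite directions. APOBEC3G, a cytidine deaminase, had 0.78 in the probe set whose mean was 6.76 and -0.79 in that at 4.4 (limma adjusted p = 0.0117 and 0.00948), and the mean of both was -0.01. SHANK2, a postsynaptic scaffold, had -1.63 and -1.62 in its brightest probe sets and 0.63 in the fourth, at 4.46 (adjusted p = 0.0391). The fourth passed in only 1 leave-one-out fit, and the mean of all 5 did not pass (-0.45, adjusted p = 0.051).

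Along the chromosomes, runs of called genes were short, and their number was not compared with that expected by chance. Among 18105 genes placed in order there was no run of 4 or more neighbours called in 1 direction, 5 runs of 3, all lower, and 49 lower and 14 higher pairs. The runs of 3, named after their values were seen, were PLPPR5, PLPPR4 and PALMD on chromosome 1, DEDD, UFC1 and USP21 and also SERTAD4, HHAT and KCNH1 on the same chromosome, HOXC9, HOXC8 and HOXC4 on chromosome 12, and COL4A1, COL4A2 and RAB20 on chromosome 13. PLPPR4, a phospholipid phosphatase-related protein of axons and synapses, measured 11.93, 12.03 and 12.21 with DMSO against 10.91, 11.02 and 10.92 with JQ1 (-1.11, limma adjusted p = 0.00118), and its neighbour PLPPR5 fell by 1.82 (adjusted p = 0.00691). PALMD passed in only 2 leave-one-out fits and USP21 in 3, and HHAT and KCNH1 did not pass with the mean of their probe sets (-0.19 and -0.46). Of the 14 higher pairs 5 were pairs of histone genes or a histone gene and a histone pseudogene, such as H2BC8 with H2AC8, and H2AC11 with H2BC12.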

How the data were processed

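RNA of 12 samples was read on the Affymetrix PrimeView array, 3 in each of 4 groups set by the sample titles. The authors made probe set values with RMA, per the submitters' processing notes (version not given in the sources used here). What they deposited is intensity on a linear scale, although log2 had been assumed in planning, so log2 of each deposited intensity was taken here, with no offset or filter. Of 49395 probe sets 102 were controls, 1832 named several genes and 2473 none, and these named no gene here. Symbols were matched through gene identifiers to the GRCh38.p14 RefSeq table (99.9%).

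The test was limma's moderated test (version 3.58.1, R 4.3.3; lmFit, eBayes) on 4 group means over 12 arrays. P-values are two-sided with Benjamini-Hochberg adjustment across genes, or across probe sets where probe sets are counted. The test was checked on simulated data. The number of arrays limits the precision (median SE 0.21 on the log2 scale). Tables and figures used Python 3.11.15, pandas 2.3.3, numpy 2.4.6 and matplotlib 3.10.9.

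Residuals of same-numbered Kelly arrays correlated at 0.434, 0.228 and 0.515 across genes, which met the rule used for pairing by the numbers in the titles. However, DMSO replicate 2 with JQ1 replicate 1 had 0.463, and DMSO replicate 1 with JQ1 replicate 2 had 0.122. Pairs of an array numbered 3 with one of another number had -0.559 to -0.237. These values set the arrays numbered 3 apart and do not show that numbers 1 and 2 mark pairs. The main fit was kept without a block.

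The members, the 58 lists and the tests were chosen with earlier results of these data known. In each list the genes named were, in each direction, up to 4 by size of those passing in all 6 leave-one-out fits without overlap between groups. Where a list had none, up to 2 passing members were named, or the 2 of largest change where none passed, and not all genes the rule gives are described. Genes named outside this rule were chosen after their values were seen. For probe sets the 6 fully passing genes with the largest smallest change and the 6 with the widest range were named.

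Alternatives were the Kelly arrays alone, a covariate for the hybridization control signal, the replicate block, quantile normalization, the mean of probe sets, an offset of 16, a mean of at least 5, a trended robust prior, no _s_at or _x_at probe sets, and each Kelly array left out. Leaving out both Kelly arrays numbered 3 was added after the data were seen.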

Additional observations from a re-analysis of the deposited data

How the results depend on the processing

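The number of arrays, 3 against 3 with a spread shared with the other cell line, limits these results, and dim genes cannot be followed below the control probe sets without a target. With the replicate number as a block, 1523 genes passed (409 higher and 1114 lower) and 2355 probe sets. The Kelly arrays alone gave 584 genes (118 and 466) and 732 probe sets (120 and 612), against 1178 and 1958 in the fit of all arrays. The hybridization control covariate gave 2293 genes (881 and 1412) and 4116 probe sets (1396 and 2720). Leaving out both Kelly arrays numbered 3, an alternative chosen after seeing the data, gave 512 higher genes and 647 higher probe sets, and quantile normalization 608 and 914. Without _s_at and _x_at probe sets 1186 passed (251 and 935). When 1 Kelly array was left out, the genes that passed numbered 603 to 2168 (125 to 707 higher, 478 to 1461 lower) and the probe sets 852 to 3843 (136 to 907 higher, 716 to 2936 lower), lowest without DMSO replicate 1 and highest without DMSO replicate 3. The mean of probe sets, the minimum level of 5, the offset of 16 and the trended robust prior kept the gene counts within 1.5 times. Of 138 named genes 127 passed, 86 of them in every setting, and 1 changed sign, APOBEC3G (-0.01 with the mean of its probe sets). The cause of these shifts was not tested.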

Other observations

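Genes were also grouped by the stem of their symbol, which gave 82 families with at least 20 measured genes, and the families described here were picked after their values were seen. Proteins of the large subunit of the mitochondrial ribosome, which translates the few proteins encoded in mitochondrial DNA, fell in 8 of 48 genes (16.7%) and rose in 0 (0 after quantile normalization, where again 8 fell). Their median log2 fold change was -0.48, and 2 of the 8 passed in all 6 leave-one-out fits. MRPL11 measured 11.03, 10.87 and 11.09 with DMSO against 10.21, 10.27 and 9.81 with JQ1 (-0.90, SE 0.15, limma adjusted p = 0.00379), with no overlap between the groups. MRPL15 fell by 1.23, and had -0.50 with the mean of its probe sets (adjusted p = 0.0781). Of 27 small subunit genes 3 fell (11.1%; 5 after quantile normalization), and the median was -0.36. MRPS15 measured 12.03, 11.83 and 11.91 against 11.20, 11.12 and 10.69 (-0.92, adjusted p = 0.00333), and had -0.37 with the mean of its probe sets (adjusted p = 0.0891).

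Ubiquitin-conjugating enzymes of the UBE2 family, which pass ubiquitin to its ligases, fell in 5 of 29 genes (17.2%) with a median of -0.13. UBE2E2 (-0.96, limma adjusted p = 0.00558) and UBE2Q2 (-1.40, adjusted p = 0.00261; -0.72 and 0.053 with the mean of its probe sets) passed in all 6 leave-one-out fits. Centrosomal genes with CEP symbols gave 6 falls (16.7%) and 2 rises (5.56%) among 36, against 4.73% and 1.76% of all genes. CEP44 measured 10.16, 10.53 and 10.01 with DMSO against 9.10, 9.07 and 9.03 with JQ1 (-1.17, adjusted p = 0.0013), and CEP19 rose by 0.92 but had 0.50 with the mean of its probe sets (adjusted p = 0.185). No test was made on these families as sets.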
